A study of Equus caballus with 4 samples.

Results

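The genes described here encode the proteins of the mitochondrial ribosome. Their members were every probe whose gene name in the array files, in upper case, is MRPS or MRPL followed by a number and, for some, a letter from A to C. This rule found 125 of the 43603 probes, standing for 65 genes. All 65 genes had a tested probe, among 9535 named genes tested in all. By name, 25 belong to the small and 40 to the large subunit.

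Differentiating equine satellite cells (ESC), the muscle stem cells of the horse, were compared with and without HMB (*β*-hydroxy-*β*-methylbutyrate), which the body makes from leucine, on 4 two-colour arrays of 60-base probes (*n* 4) on 1 slide. The cells came from the semitendinosus muscle of healthy colts 6 months old and had spent 2 days in differentiation medium when HMB was added for 24 h, so that both HMB-treated and control cells were on day 3 of differentiation at harvest. The dose is 50 µM in the study's methods but 50 µg in the sample labels, and the description field of the labels calls the cells GO-treated, whereas their titles and source names say HMB. HMB-treated cells carried Cy5 and control cells Cy3 on every array, so a bias of a probe towards a dye cannot be told apart from an effect of HMB, and the colt behind each array is not named.

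Mitochondria hold their own ribosomes, which translate the few proteins encoded by mitochondrial DNA, all of them parts of the complexes of oxidative phosphorylation. The small subunit binds and decodes the mRNA, whereas the large subunit joins the amino acids and feeds the new chain towards the inner membrane. Their proteins are encoded in the nucleus, made in the cytosol and imported, and they are either descendants of bacterial ribosomal proteins or later additions found in mitochondria alone.

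Each value below is the log2 ratio of HMB-treated over control cells after the authors' lowess dye normalisation, so that a positive value stands for more mRNA with HMB. Errors are SD over the 4 arrays unless named otherwise. Standard errors are those of limma, whose moderated variance also draws on the other tested probes, so they do not follow from a gene's own SD. The mean ratio of every tested probe was compared with 0 by limma, two-sided, and a gene, represented by its brightest tested probe, counts as changed at a Benjamini and Hochberg adjusted *P* of at most 0.05 over all 27384 tested probes. The *P* value rests on the spread between these 4 arrays only, with that of each probe moderated by limma towards the spread of all tested probes. An exact test over the arrays, flipping the signs of their ratios, can come out in 8 distinct ways and give no two-sided *P* below 0.125. With 4 arrays the precision is limited. In these bulk samples, fewer cells of a type and less RNA per cell cannot be told apart.

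The mRNA of 8 of the 65 genes (12.3%) rose in HMB-treated cells and that of 0 fell. *MRPS6* and *MRPS16* rose among the small-subunit genes, and *MRPL46*, *MRPL2*, *MRPL24*, *MRPL13*, *MRPL48* and *MRPL9* among the large. On the deposited ratios the rises were small, between 1.15-fold for *MRPL9* and 1.28-fold for *MRPS6*, and each was positive on all 4 arrays. Across the arrays as a whole, 22.8% of tested probes and 22.7% of named genes passed the same threshold, 11.4% of named genes being higher and 11.3% lower, so the share of ribosomal genes called was below the background in sum and near it for rises, and a share near the background is not a result about the members. At an unadjusted *P* under 0.05, limma gave 17 member genes, of which 17 were higher and 0 lower, where it gave 38.3% of named genes, 20.9% higher and 17.4% lower. The t-test of each probe's own ratios gave 1 gene higher, *MRPL48*, and 0 lower, and 2.39% of named genes. In limma 0 members passed without array 2 and 0 without array 3, where 8.89% and 9.98% of named genes did. Without array 1 there were 4, with *MRPL42* and 3 of the 8 among them, and 16.9% of named genes, and without array 4 there were 4, all among the 8, and 17.7%.

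The probes that stand for the 8 genes are given below 5′ to 3′, in the order of the size of the rise, since each ratio is read from these 60 bases alone.
MRPS6: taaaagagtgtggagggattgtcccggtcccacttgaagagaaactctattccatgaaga
MRPS16: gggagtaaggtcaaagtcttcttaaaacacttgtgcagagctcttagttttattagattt
MRPL46: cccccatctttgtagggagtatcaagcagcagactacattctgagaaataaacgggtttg
MRPL2: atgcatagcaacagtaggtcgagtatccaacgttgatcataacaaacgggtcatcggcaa
MRPL24: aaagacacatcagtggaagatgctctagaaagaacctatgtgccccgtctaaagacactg
MRPL13: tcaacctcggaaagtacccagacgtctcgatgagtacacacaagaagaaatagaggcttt
MRPL48: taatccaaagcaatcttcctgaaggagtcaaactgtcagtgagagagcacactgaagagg
MRPL9: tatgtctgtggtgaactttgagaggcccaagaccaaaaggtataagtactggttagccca
The share of G and C was 35% in the *MRPS16* probe and 45% in the others. Positions are those of the array files on the EquCab1 build, in the direction of the probe. The *MRPS6* probe lies at chr26:11175556-11175497, that of *MRPS16* at chr1:60368050-60367991 and that of *MRPL46* at chr1:91900099-91900158. The *MRPL2* probe lies at chr20:35545572-35545513 and the *MRPL13* probe at chr9:58447906-58447847. The *MRPL48* probe spans 1079 bases of the genome, chr7:57772261-57771183, and so crosses a splice junction. Those of *MRPL24* (chrUn:84942922-84942863) and *MRPL9* (chrUn:80899490-80899431) are on sequence not placed on a chromosome.

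*MRPS6* (ENSECAT00000013068) encodes a protein of the platform of the small subunit, descended from a bacterial protein. On arrays 1 to 4 its log2 ratios were 0.26, 0.37, 0.20 and 0.58. All were above 0, and array 4 was the highest. The mean was 0.35 ± 0.17 (standard error 0.08, 1.28-fold, adjusted *P* = 0.0262 in limma). *MRPS16* (ENSECAT00000009340), another descendant of a bacterial protein and one whose loss in patients impairs mitochondrial translation, had ratios of 0.22, 0.33, 0.27 and 0.44. These lay closer together, again with array 4 on top. The mean was 0.32 ± 0.09 (standard error 0.07, 1.25-fold, adjusted *P* = 0.0197), and 0.61 with no lowess. Without array 2 the adjusted *P* values of *MRPS6* and *MRPS16* were 0.104 and 0.0943, and without array 3 they were 0.0585 and 0.0726. Without array 1 the value for *MRPS6* was 0.0517.

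Among the large-subunit genes that rose, *MRPL46* and *MRPL48* encode proteins of the central protuberance that bacteria lack. On the 4 arrays in turn *MRPL46* (ENSECAT00000007778) had ratios of 0.19, 0.23, 0.31 and 0.48 and a mean of 0.30 ± 0.13 (standard error 0.07, adjusted *P* = 0.0292). *MRPL48* (ENSECAT00000023582) had ratios of 0.24, 0.27, 0.20 and 0.21 and a mean of 0.23 ± 0.03 (standard error 0.06, adjusted *P* = 0.0350). Its arrays were almost level, with the smallest SD of the 8 genes, whereas those of *MRPL46* were spread, with array 4 the highest.

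*MRPL2*, *MRPL24*, *MRPL13* and *MRPL9* encode descendants of bacterial proteins. That of *MRPL2* (ENSECAT00000021638) lies next to the centre where peptide bonds form, and its ratios were 0.36, 0.36, 0.29 and 0.17, with a mean of 0.29 ± 0.09 (standard error 0.06, adjusted *P* = 0.0236). *MRPL24* (ENSECAT00000011809), whose product sits near the tunnel through which the new chain leaves, had ratios of 0.39, 0.27, 0.25 and 0.10 and a mean of 0.25 ± 0.12 (standard error 0.07, adjusted *P* = 0.0471). In both genes array 4 was the lowest, the reverse of *MRPS6*, *MRPS16* and *MRPL46*. *MRPL13* (ENSECAT00000022595) had ratios of 0.09, 0.31, 0.25 and 0.30 and a mean of 0.24 ± 0.10 (standard error 0.07, adjusted *P* = 0.0487). Here array 1 stood low. *MRPL9* (ENSECAT00000017217) had ratios of 0.25, 0.20, 0.14 and 0.24 and a mean of 0.21 ± 0.05 (standard error 0.06, adjusted *P* = 0.0493), the smallest rise and the one nearest the threshold.

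Leaving out an array ended each of the 6 large-subunit calls at least in part. Without array 2 their adjusted *P* values lay between 0.0949 (*MRPL46*) and 0.207 (*MRPL13*), and without array 3 between 0.0947 (*MRPL2*) and 0.168 (*MRPL13*). Without array 1, *MRPL46* and *MRPL13* were past the threshold, and the others lay between 0.0575 (*MRPL2*) and 0.0995 (*MRPL24*). Without array 4, *MRPL2* and *MRPL24* were past it, and the others lay between 0.0521 (*MRPL48*) and 0.0948 (*MRPL13*). *MRPL42*, which encodes a protein found in mitochondria alone and is named after its values were seen, had ratios of -0.05, 0.34, 0.36 and 0.49, an adjusted *P* of 0.0851 on all arrays and one of 0.0259 without array 1, the array on which it was negative.

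**Figure D1:**
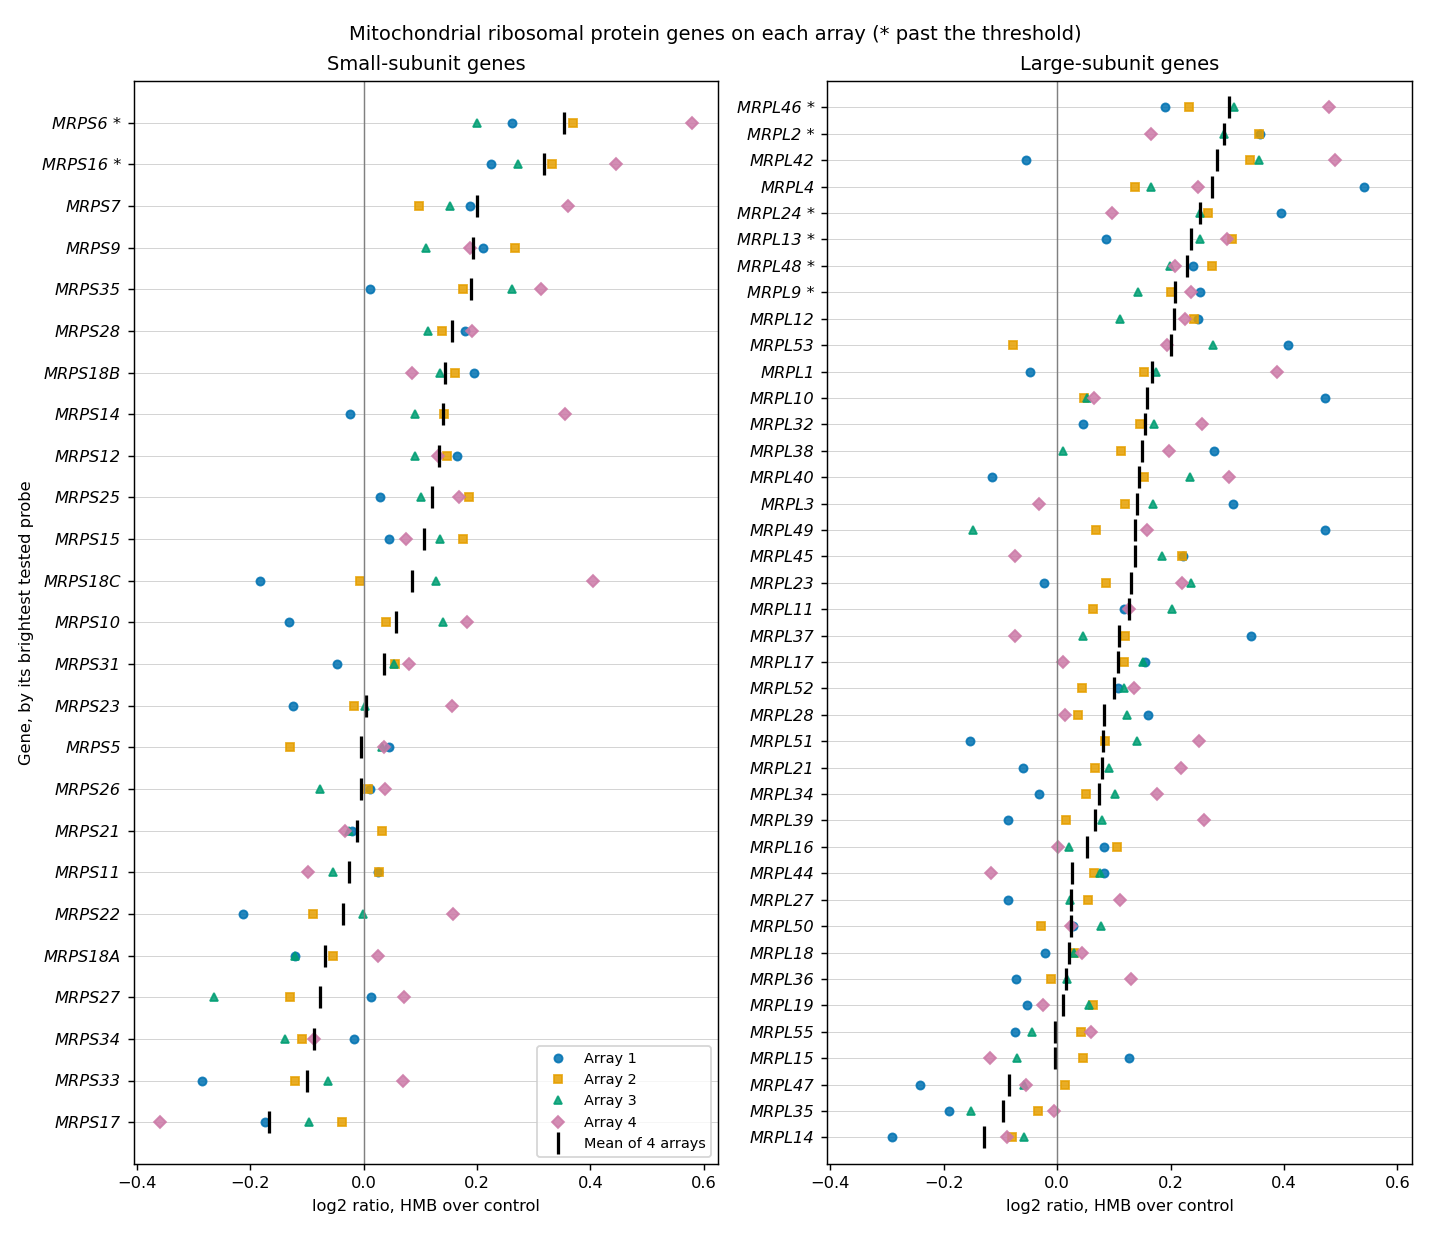
Log2 ratio of HMB-treated over control cells (x axis) for the 25 small-subunit and 40 large-subunit genes (y axis), with a symbol for each of the 4 arrays, a bar for their mean and an asterisk at the 8 genes past the threshold of limma. Means run from -0.17 (*MRPS17*) to 0.35 (*MRPS6*).

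The 57 genes that did not pass had mean ratios between -0.17 and 0.28. In the plot of all members by array, the means lie mostly to the right of 0. The mean was positive for 50 genes (76.9%) and negative for 15, against 54.1% positive among all tested probes. A positive ratio on all 4 arrays was seen for 26 genes (40%), compared with 25% of tested probes, and a negative ratio on all 4 for 4 genes (6.15%), compared with 21.4%. The median of the 65 mean ratios was 0.11, and the median of all tested probes was 0.02. With normexp background correction and loess the members' median was 0.07 with 43 genes positive. With no lowess it was 0.19 with 62 positive, where the median of all tested probes was 0.06. With no lowess and centring on the tested probes the members' median was 0.14 with 56 positive. The members' median thus stayed positive under each scaling. The members' medians on arrays 1 to 4 were 0.03, 0.07, 0.10 and 0.13, array 1 being the lowest. These are descriptions of the members beside all probes, without a test.

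The lowest means were those of *MRPS17* and *MRPL14*, which are named after their values were seen. *MRPS17* had ratios of -0.17, -0.04, -0.10 and -0.36, negative on each array, with a mean of -0.17 ± 0.14 and an adjusted *P* of 0.151. The files name its probes *MRPS17* but describe them as a zinc finger protein, so which mRNA they read is uncertain. It was also the only member among the dimmest 6846 of the tested probes. *MRPL14* had ratios of -0.29, -0.08, -0.06 and -0.09, with array 1 apart from the rest, a mean of -0.13 ± 0.11 and an adjusted *P* of 0.211. With no lowess and centring on the tested probes, an alternative chosen after seeing the data, *MRPS17* passed the threshold at -0.29 (adjusted *P* = 0.0490).

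The members' rule asks for the small against the large subunit. The median of the small-subunit genes was 0.01, 0.04, 0.09 and 0.13 on arrays 1 to 4, and that of the large-subunit genes 0.08, 0.08, 0.11 and 0.13. The small subunit was lower on each array, by the most on array 1 and hardly at all on array 4. The difference, small minus large, was -0.07, -0.04, -0.02 and -0.0026, with a mean of -0.034 ± 0.029, little more than its SD over the arrays, and it was not tested. Over the mean ratios the small-subunit median was 0.06 and the large-subunit median 0.12. Without array 1 this order was the other way round, at 0.12 for the small and 0.11 for the large subunit. Without array 3 and without array 4 the small-subunit median was 0.03 and 0.016.

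Of the small-subunit genes 15 were positive and 10 negative, and of the large-subunit genes 35 were positive and 5 negative. The 2 rises of the small subunit are 8% of its genes and the 6 of the large subunit 15%. The share of named genes that rose, 11.4%, lies between them, so neither is a result about a subunit. The counts were 1 and 3 without array 1, 0 and 0 without array 2 or array 3 in limma, and 2 and 2 without array 4. Of all named genes 16.9%, 8.89%, 9.98% and 17.7% passed in either direction without arrays 1, 2, 3 and 4. Whether the subunits differ in the share that rose was not tested. *MRPS18A*, whose product sits in the large subunit despite its name, had ratios of -0.12, -0.05, -0.12 and 0.03, a mean of -0.07 ± 0.07 and an adjusted *P* of 0.456, with a positive mean of 0.06 under no lowess. Counted with the large subunit, it left the small-subunit median at 0.07 and the difference at -0.02.

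The members were also grouped by the origin of the protein. The 14 small-subunit genes for descendants of bacterial proteins had a median of 0.12, with 10 positive. The 10 for proteins found in mitochondria alone had a median of -0.00027, with 5 positive and 0 past the threshold in limma, 2 at an unadjusted *P* under 0.05, both higher, and 0 in the t-test. In this class the sign of the median depends on the scaling, at -0.045 with normexp and loess and 0.096 with no lowess. In the large subunit the 25 bacterial descendants had a median of 0.11, with 21 positive, and the 14 mitochondrial additions one of 0.14, with 14 positive. With normexp and loess 13 of these 14 were positive, and with no lowess 14. The split was made on gene names with *MRPS18A* and *MRPL55* left out, and no difference between the classes was tested. *MRPL55*, a large-subunit gene given no class, had a negative mean of -0.0039 ± 0.066 (adjusted *P* = 0.969 in limma).

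**Figure D2:**
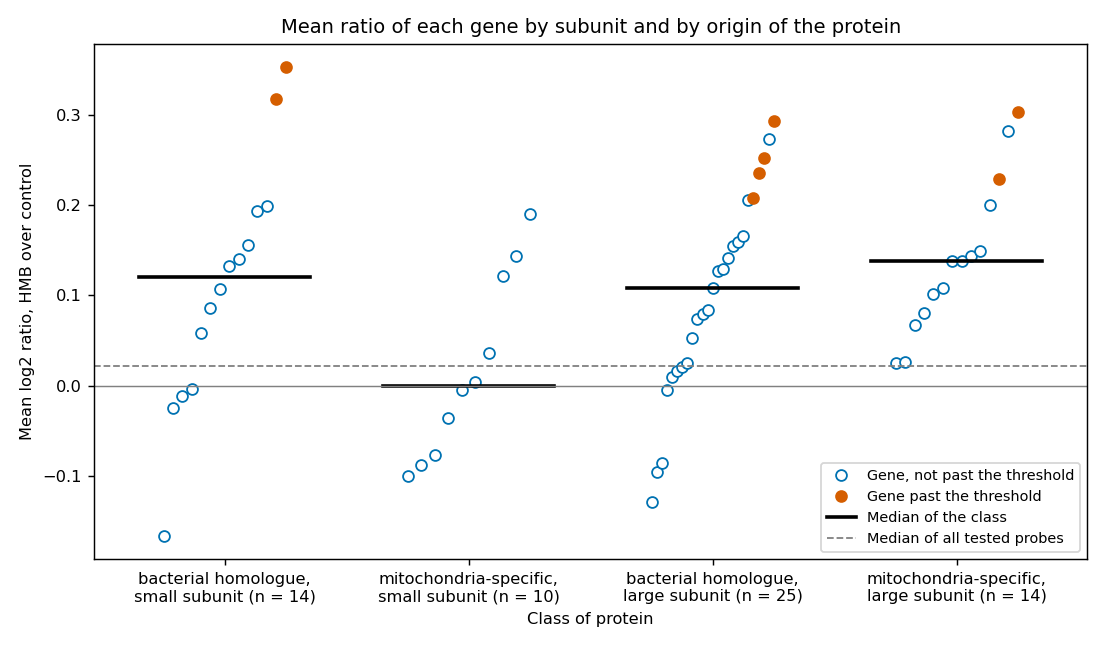
Mean log2 ratio of HMB-treated over control cells (y axis) of each gene in 4 classes of protein (x axis), with filled points for genes past the threshold of limma, a thick line for the median of the class and a dashed line for the median of all tested probes, 0.02. The class of 10 small-subunit proteins found in mitochondria alone is centred near 0 (its median is -0.045 with normexp and loess and 0.096 with no lowess), and the other 3 medians lie between 0.11 and 0.14.

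The arrays differed in how they placed the members. Array 1 gave the lowest ratio of the 4 for 30 of the 65 genes and array 4 the highest for 30. Of the genes with a single negative array, 13 were negative on array 1 alone, 3 on array 2, 2 on array 3 and 4 on array 4. The SD over arrays had a median of 0.10 over the members, against 0.16 over all tested probes. Most members were bright, and the SD of the brighter probes was smaller too, with medians of 0.14 and 0.12 in the 2 brightest of 4 groups of tested probes, and it was 0.10 over the cytosolic ribosomal genes. Across the 65 genes, none an independent replicate, Pearson's *r* was lowest between arrays 1 and 4, at 0.147 (Spearman 0.114), and highest between arrays 2 and 3, at 0.721 (Spearman 0.726). It was computed for each pair of the 4 arrays, which share the probes, and it is a description.

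When the tested probes were split by intensity into 4 groups of 6846, from dimmest to brightest, the groups held 1, 8, 22 and 34 member genes. All 65 had both channels well above background on all 4 arrays. Among the 34 of the brightest group the median ratio was 0.07, where that of all tested probes of the group was 0.0027, and among the 22 of the next group it was 0.14, where that of the probes was 0.02. The members' medians were above those of the probes in each group but the dimmest, which holds *MRPS17* alone.

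Several probes read the same mRNA in 24 genes, and 41 genes had 1 tested probe. The means of a gene's probes spanned less than 0.1 in 21 of the 24. In 9 of the 24 the probes lie within 100 bases of each other on the genome, so they share most of their sequence and are not independent readings. This count leaves out genes with a probe over a splice junction, such as *MRPL13* and *MRPS6*, some of whose probes overlap as well. Probes of a gene that pass together are therefore not separate support. In 4 genes the probes had both signs, and 0 of these 4 had a probe past the threshold. For *MRPS16* and *MRPL13*, with 5 and 3 probes, all were past it, and for *MRPL46* it was 4 of 5. *MRPS28*, chosen here after its values were seen, had 1 of 5 probes past it, with means between 0.16 and 0.23, while its brightest probe had an adjusted *P* of 0.0999.

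The widest span, 0.21, was that of *MRPS6*. All of its 9 probes passed the threshold, and the brightest, which stands for the gene, had the lowest mean of them. The probes fall into 2 stretches of the gene, within which neighbouring probes share sequence and are not independent readings of the gene. The 4 towards its 3′ end had means between 0.35 and 0.42, and the 5 further upstream had means between 0.50 and 0.56. The ratios of the downstream and upstream probes did not overlap on arrays 1, 2 or 3. Nor did they on array 4, where the former ran from 0.58 to 0.74 and the latter from 0.79 to 0.89. Of the upstream probes, the pair below shares 58 bases, printed in capitals, and is shown because 1 of them reaches over a splice junction.
MRPS6 junction: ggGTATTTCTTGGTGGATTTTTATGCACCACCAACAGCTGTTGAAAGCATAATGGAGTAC
MRPS6 upstream: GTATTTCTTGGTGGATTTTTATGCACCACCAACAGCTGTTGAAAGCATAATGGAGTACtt
The junction probe begins with its first bases in an exon further upstream, chr26:11193671-11175618, and had a mean of 0.53 (adjusted *P* = 0.00982). The other lies in 1 exon, chr26:11175675-11175616, with a mean of 0.56 (adjusted *P* = 0.0133). Both gave the rise, and no test was made of the difference between the stretches.

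**Figure D3:**
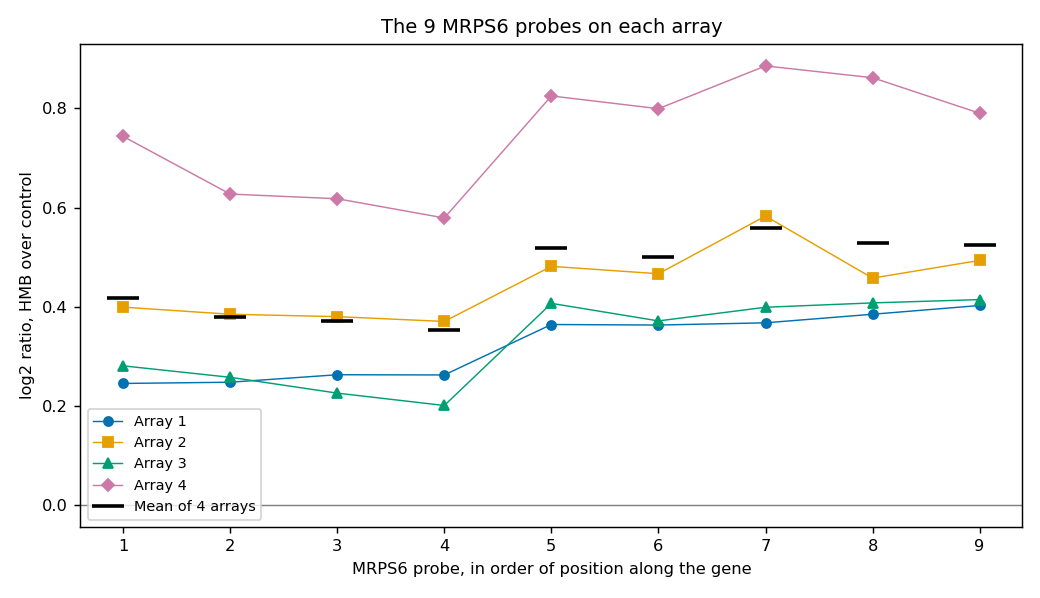
Log2 ratio of HMB-treated over control cells (y axis) for the 9 *MRPS6* probes in order of position along the gene (x axis), with a line for each of the 4 arrays and a bar for the mean. The first 4 probes have means between 0.35 and 0.42, the other 5 between 0.50 and 0.56, and array 4 is the highest at every probe.

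The members are scattered over the genome. The representative probes of 51 genes are placed on 23 chromosomes, 13 are on unplaced sequence and 1 has no position. Chromosome 11 holds the most, 7. Of the 9 neighbouring pairs within 2000 kb, the closest is *MRPS11* and *MRPL46* on chromosome 1, whose probes lie 20.3 kb apart. *MRPL46* rose, as given above, whereas *MRPS11* had ratios of 0.03, 0.03, -0.05 and -0.10 and a mean of -0.02 ± 0.06 (adjusted *P* = 0.791). On chromosome 20, *MRPL2* rose, and its neighbours had means of 0.06 (*MRPS10*), -0.07 (*MRPS18A*) and -0.13 (*MRPL14*), none of them past the threshold. The genes beside the 8 were chosen for their place and named after their values were seen, and differences between neighbours were not tested.

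Some proteins of the mitochondrial ribosome are on the array under names the rule does not find. *MRPL33* was found through the RefSeq gene table, and *MRPS24*, *MRPS30*, *MRPL20*, *MRPL22* and *MRPL43* through the description of probes that carry an accession only. The last 5 were added as an alternative chosen after seeing the data. *MRPL20* had ratios of -0.26, -0.22, -0.30 and -0.13, negative on all arrays, with a mean of -0.23 ± 0.07 (standard error 0.06, adjusted *P* = 0.0425 in limma), and *MRPL43* had 0.28, 0.15, 0.17 and 0.37, with a mean of 0.24 ± 0.10 (standard error 0.07, adjusted *P* = 0.0445). Both passed the threshold on the deposited ratios, in opposite directions. The adjusted *P* of *MRPL20* was 0.292 with no lowess, where its mean was -0.12, and 0.0774 in the t-test, and that of *MRPL43* was 0.0575 with normexp and loess, 0.0699 with no filter on dim probes and 0.105 in the t-test. With the channels unpaired they were 0.123 and 0.174. Without array 2 their adjusted *P* values were 0.170 and 0.121, without array 3 they were 0.177 and 0.120, and without array 1 they were 0.0821 and 0.0908, while without array 4 that of *MRPL43* was 0.0849. *MRPS24*, which the study lists under small ribosomal subunit among its differentially expressed genes, had a mean of 0.12 ± 0.02 (adjusted *P* = 0.171 in limma). However, *MRPS24* was past the threshold in the t-test (0.0455), with no filter on dim probes (0.0279) and with no lowess (0.0225, mean 0.34). With no lowess and centring on the tested probes its adjusted *P* in limma was 0.0359. *MRPL22* had a mean of 0.11 ± 0.04 (adjusted *P* = 0.223) and *MRPS30* one of 0.07 ± 0.26 (adjusted *P* = 0.666), the last negative at -0.05 without array 4. *MRPL33* had a mean of -0.03 ± 0.19 (adjusted *P* = 0.808), but one of 0.06 without array 1 and of 0.08 with no lowess. With these 6 genes, 10 of 71 passed, 9 higher and 1 lower, so the absence of falls does not hold for every mitochondrial ribosomal protein on the array. No probe was found for *MRPS36*, nor for *MRPS2*, *MRPL30*, *MRPL41* or *MRPL54*.

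The choice of test and of arrays moved the count of members more than the dye scaling did. With normexp and loess 7 genes passed (10.8%, beside 22.8% of all tested probes) and 7 of them were among the 8. With no lowess 11 passed (16.9%, beside 28.6% of all tested probes), all higher, including the 8. With no filter on dim probes 7 passed (10.8%, beside 8.46% of all probes), and 4 of them were among the 8. Here *MRPS6*, *MRPL46*, *MRPL24* and *MRPL13* had adjusted *P* values between 0.0691 and 0.0854, and *MRPL12*, *MRPS28* and *MRPS12*, named after their values were seen, passed with means of 0.21, 0.16 and 0.13. With the channels as separate samples and no pairing within arrays 1 gene passed, *MRPL2* (1.54%, beside 9.37% of all tested probes). With a minimum of 1.3-fold 0 genes passed in limma, beside 14.1% of all tested probes. The rises on the deposited ratios were all smaller than this in the probe that stands for the gene, although other *MRPS6* probes had means of up to 0.56. Over all tested probes the share of calls that were higher was 49.1%, and it was 59.2% with no lowess, 34.7% with separate channels and 36.2% without array 2.

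**Figure D4:**
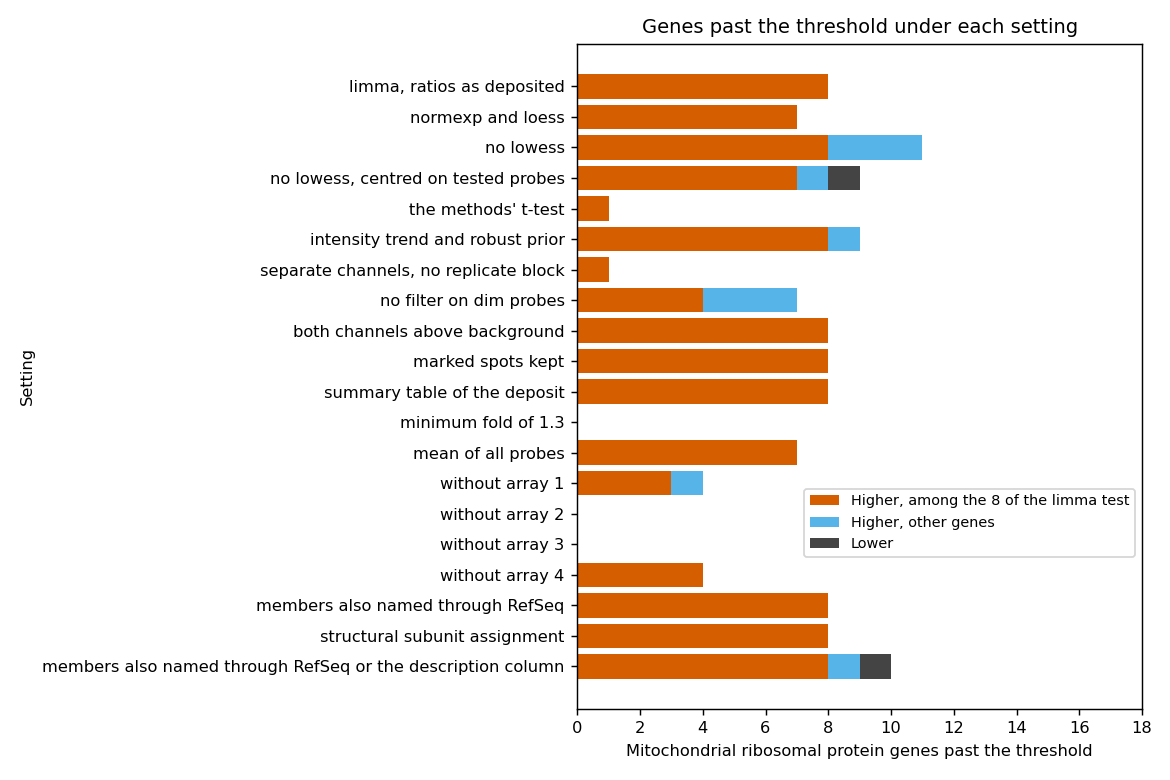
Number of mitochondrial ribosomal protein genes past the threshold (x axis) under each setting (y axis), split into the 8 genes of the limma test, other genes that were higher and genes that were lower. The count is 8 in the limma test on the deposited ratios, 11 with no lowess, 1 in the t-test and 0 without array 2, without array 3 or with a minimum of 1.3-fold. In the same order, 22.8%, 28.6%, 2.80%, 9.36%, 9.97% and 14.1% of all tested probes passed.

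The markers of muscle cells were measured beside the ribosomal genes. Of 12 myogenic markers 8 were on the array, all above background in both channels, and all 8 fell with HMB, with a median of -0.94 and medians of -0.45, -0.84, -1.06 and -1.22 on arrays 1 to 4. *PAX7*, *CDH15*, *TNNT1* and *TMEM8C* had no probe under these names. Without array 2 and without array 3, 5 of the 8 passed in limma, with no filter on dim probes 2 passed and in the t-test 0. With no lowess their median was -0.55, and 7 passed, all lower. Of the fibroblast markers 5 were tested and 2 rose, *PDGFRA* at 1.53 ± 0.47 and *FAP* at 0.42 ± 0.18, while *DCN*, *THY1* and *COL3A1*, at 0.15 ± 0.22, -0.10 ± 0.19 and -0.21 ± 0.43, did not pass. With an array left out, 1 fibroblast marker passed without array 1, without array 2 or without array 3. Their median was 0.15. It was 0.35 with normexp and loess, where 3 were higher, and 0.75 with no lowess, where 4 were higher, while 0 passed in the t-test and 1 of 6 with no filter on dim probes. None of the adipocyte and endothelial markers on the array was above background on all arrays, and of the leukocyte markers *CD3E* and *CSF1R* were not. The leukocyte markers *CD14* and *CD68* were tested and did not pass, with means of 0.02 ± 0.15 and -0.29 ± 0.30. *CD68* was negative on every array. The part of the muscle markers in the ratios of the ribosomal genes was not tested.

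The ribosomal genes stand among other genes of mitochondrial translation. Of 26 tested genes that assemble the mitochondrial ribosome or modify its RNA, 4 rose (15.4%) and 0 fell, with a median of 0.06. Among all named genes 11.4% rose, 11.3% fell and 22.7% passed in all, the shares to set beside the counts of this and the following lists. At an unadjusted *P* under 0.05 limma gave 5 higher and 0 lower, and the t-test gave 0. Limma gave 3 with normexp and loess, 3 with no filter on dim probes, 2 with no lowess centred on the tested probes and 1 with separate channels, all higher. The median was 0.02 with normexp and loess and 0.03 without array 4. *RPUSD4*, which encodes a pseudouridine synthase, had ratios of 0.34, 0.20, 0.33 and 0.39, with a mean of 0.32 ± 0.08 (adjusted *P* = 0.0182). *MTG1*, for a GTPase of large-subunit assembly, had a mean of 0.30 ± 0.17 (adjusted *P* = 0.0418), and the rRNA methyltransferases *MRM1* and *TFB1M* had means of 0.23 ± 0.05 (adjusted *P* = 0.0380) and 0.22 ± 0.05 (adjusted *P* = 0.0420). All were positive on each array. Without array 2 their adjusted *P* values lay between 0.0601 and 0.204, and without array 3 between 0.0808 and 0.162. Without array 1 *RPUSD4* passed (0.0459) and the other 3 lay between 0.0664 and 0.0777, and without array 4 *RPUSD4* and *MRM1* passed and the others had 0.0540 and 0.0611.

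Among 11 tested translation factors of mitochondria 0 passed in limma (median 0.07; 2 higher and 0 lower at an unadjusted *P* under 0.05, and 0 in the t-test). Their median was 0.14 without array 1, 0.03 without array 3 and 0.01 without array 4. Limma gave 1 higher with no lowess and 1 higher with an intensity trend and robust prior. Among 13 genes for the charging of mitochondrial tRNA, 10 for aminoacyl-tRNA synthetases and 3 (*GATB*, *GATC* and *QRSL1*) for the glutamyl-tRNA amidotransferase, 0 passed in limma on the deposited ratios (median 0.03; 0 higher and 1 lower unadjusted, and 0 in the t-test), with a median of -0.02 under no lowess with centring on the tested probes. A separate list of mitochondrial ribosomal proteins under other names had 4 tested genes and gave 0 too. It does not hold *MRPL20* or *MRPL43*, which passed as given above. Its median was -0.04, 0.14 with no lowess and 0.01 without array 1, with 0 genes unadjusted and 0 in the t-test. Of 12 genes of mitochondrial transcription, RNA stability and, for *POLG*, *POLG2* and *SSBP1*, DNA replication, 1 fell, the transcription factor *TFB2M*, at -0.27 ± 0.13 (adjusted *P* = 0.0418). Leaving out any array ended the call, with adjusted *P* values between 0.0770 and 0.132, as did normexp and loess (0.0517) and the t-test (0.120). The median of that list was -0.05, and 0.01 with no lowess.

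Of 8 tested regulators of nuclear genes for mitochondria 1 passed as higher and 1 as lower (median 0.03, and -0.01 with normexp and loess). With both channels required to be above background 7 were tested, of which 0 passed as higher and 1 as lower, with a median of -0.02. *NRF1*, a transcription factor of respiratory and mitochondrial translation genes, had ratios of 1.16, 0.53, 0.70 and 1.23, highest on arrays 1 and 4, and a mean of 0.91 ± 0.34 (standard error 0.13, adjusted *P* = 0.00703). Above background on 4 arrays in HMB-treated but on 3 in control cells, it entered the test through the former alone, and its mean is no exact fold. As *NRF1* was let in through the group where it is high, neither its *P* value nor its passing whichever array was left out is support for a rise. Its mean was 0.37 with normexp and loess. The adjusted *P* of *NRF1* was 0.0581 in limma with no filter on dim probes and 0.0937 in the t-test. With a filter on both channels it was not tested. *PPARGC1B*, a coactivator of such factors, fell, with a mean of -0.28 ± 0.07 (adjusted *P* = 0.0241), and had adjusted *P* values of 0.131 without array 2 and 0.110 without array 3.

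The cytosolic ribosome was compared as the other ribosome of the cell. Of its 73 tested genes 10 rose and 2 fell (16.4% in all, beside 22.7% of named genes), with a median of 0.10. Limma gave 15 calls without array 1, 2 without array 2, 1 without array 3 and 6 without array 4. The t-test gave 1 and limma with an intensity trend and robust prior 23. The largest rises were those of *RPL10L* (0.42 ± 0.20), *RPS18* (0.39 ± 0.07), *RPL7A* (0.34 ± 0.09) and *RPS27A* (0.34 ± 0.14). The falls were those of *RPL3L*, a paralogue of striated muscle (-0.85 ± 0.18, past the threshold whichever array was left out), and *RPS3A* (-0.26 ± 0.12, and 0.26 with no lowess). Their median was 0.36 with normexp and loess, with 46 higher and 1 lower, and 0.96 with no lowess, with 68 higher and 1 lower. The mitochondrial ribosomal median moved between 0.07 and 0.19 under the same scalings.

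The proteins that the mitochondrial ribosome makes join nuclear-encoded subunits of oxidative phosphorylation. Of 60 tested genes for the latter 0 rose and 4 fell (6.67%, beside 22.7% of named genes). Their median was -0.11 on the deposited ratios and 0.23 with no lowess, where 19 were higher and 1 lower. With normexp and loess their median was -0.096, with 1 higher and 9 lower, and with an intensity trend and robust prior 0 were higher and 10 lower in limma. At an unadjusted *P* under 0.05 limma gave 0 higher and 19 lower, and the t-test gave 0 higher and 1 lower. The falls were those of *COX6A2* (-0.42 ± 0.18), *COX6A1* (-0.31 ± 0.05, and 0.48 with no lowess), *COX6B1* (-0.24 ± 0.06, and 0.37 with no lowess) and *NDUFA2* (-0.22 ± 0.05). Without array 2 and without array 3, 0 of the 60 passed. Of the mRNA encoded by mitochondrial DNA 6 were tested, with a median of -0.18 on the deposited ratios, 0.09 with normexp and loess and 0.55 with no lowess. On the deposited ratios the median was -0.32 without array 1 and -0.10 without array 3. On array 1 itself it was 0.26, with 5 of the 6 positive. *COX2* fell on the deposited ratios, with a mean of -0.47 ± 0.19 (adjusted *P* = 0.0147), but was higher with no lowess, at 0.56. Without array 2 and without array 3 the adjusted *P* of *COX2* was 0.0607 and 0.0581, and without array 1 there were 3 of the 6 past the threshold, all lower. With normexp and loess 1 was higher and 0 lower, *COX2* having a mean of -0.098 there and not passing, with no lowess all 6 were higher, and in the t-test 0 passed.

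**Figure D5:**
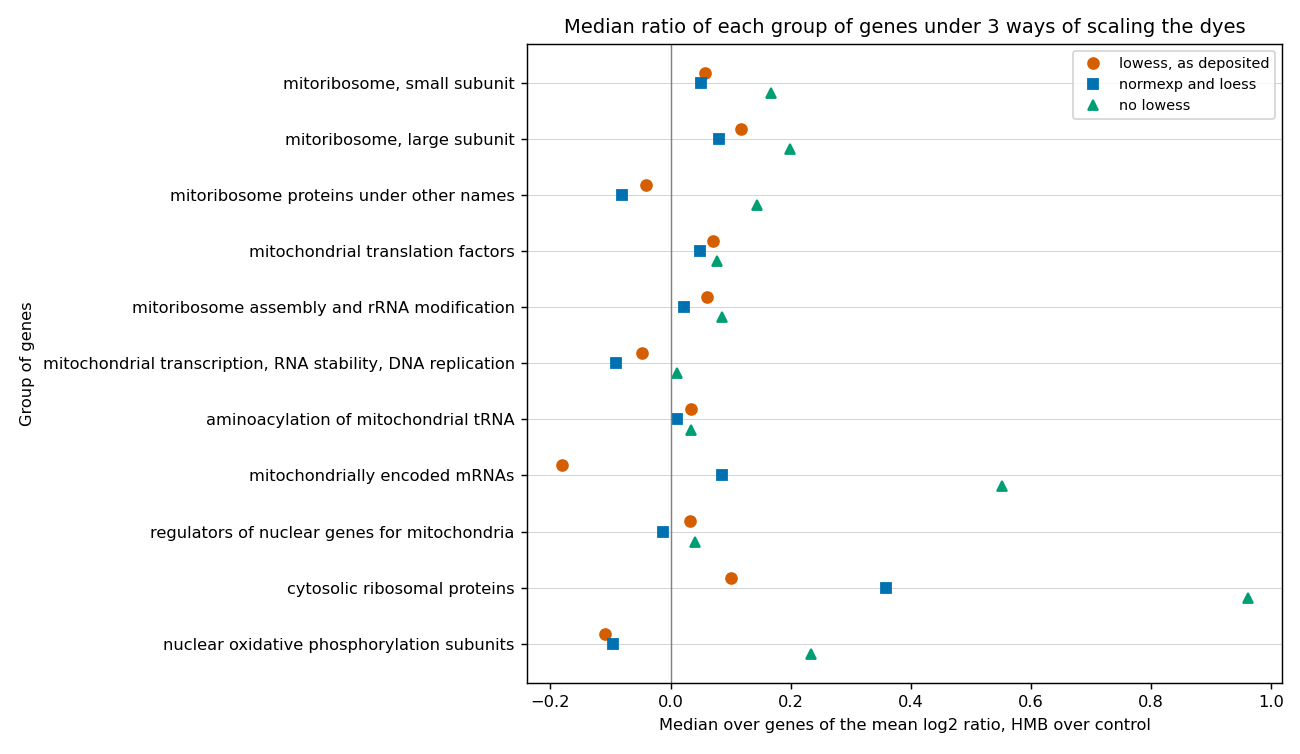
Median over genes of the mean log2 ratio of HMB-treated over control cells (x axis) for the small and large subunit of the mitochondrial ribosome and 9 lists of other genes (y axis), under 3 ways of scaling the dyes. The medians of the small and large subunit are positive under all 3, from 0.05 to 0.20, whereas 5 of the 9 other medians change sign. These are the medians of oxidative phosphorylation subunits, mitochondrially encoded mRNA, transcription with RNA stability and DNA replication, and regulators of nuclear genes. The last is that of ribosomal proteins under other names, a list without *MRPL20* and *MRPL43*.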

How the data were processed

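RNA of HMB-treated (Cy5) and control (Cy3) cells was compared on 4 arrays, each giving 1 ratio. The authors made the spot values with Feature Extraction, version 10.10.1.1 in the deposited files and another version in the methods. The deposited ratios of Cy5 to Cy3 are log10 values, background-subtracted and lowess-normalised by the authors, and the deposited table of values holds the same log10 values (largest difference 0). The deposited intensity values are mean signals, background medians and processed signals. The other deposited columns are marks of 0 or 1 that tell whether a spot was above background, saturated, non-uniform or an outlier. The median of signal over background was 3.52, 3.16, 3.52 and 3.82 in Cy3 and 4.68, 5.85, 4.81 and 4.74 in Cy5 on arrays 1 to 4.

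Multiplying by 3.32 put the ratios on the log2 scale. Control spots and spots marked non-uniform or outlying (11, 17, 32 and 15 on arrays 1 to 4) were left out, and repeated spots were averaged by probe. Testing needed the signal of 1 channel to be well above background throughout the 4 arrays, with a value on 3 of them or more, which held for 27384 probes, 124 of them of the members. Tests were made in R 4.3.3 by limma 3.58.1 (an intercept with moderated variance, Benjamini and Hochberg at 0.05). Python 3.11.15, pandas 2.3.3, numpy 2.4.6, matplotlib 3.10.9 and version 1.17.8 of the R package data.table served for tables and plots. The fit was tested on simulated data, but no outcome of this is given, and no result here rests on it. No reference held protein or promoter sequences, so the probes alone are printed. RefSeq (TB-T2T assembly) served for names only.

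The members and lists were chosen with earlier results of these data known. Genes named by rule are the members that passed limma's threshold and kept 1 sign over the arrays (at most 12 a direction), *MRPS24*, *MRPS30*, *MRPS18A* and, of each other list, at most 4 a direction. Others were named after their values were seen. The lists were mitochondrial ribosomal proteins under other names, translation factors, assembly and rRNA modification, transcription with RNA stability and DNA replication, charging of tRNA, mitochondrially encoded mRNA, regulators, cytosolic ribosomal proteins, oxidative phosphorylation subunits and cell markers. The alternatives were normexp (offset 50) with loess, no lowess, a t-test of each probe, a robust prior with an intensity trend, channels unpaired, no filter, a filter on both channels, marked spots retained, the deposited value table, a minimum of 1.3-fold, the mean of a gene's probes, RefSeq names, subunits by structure, and each array left out.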

Additional observations from a re-analysis of the deposited data

Results flagged for a closer look

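In 7 of 93 sets of ratios examined, 1 array lay far from the other 3, and chance alone gives about 1 in 20. Of these, 6 were among the 65 members, and array 4 was the distant one in 3 of the 7. *MRPL10* had 0.47 on array 1 and between 0.048 and 0.065 on the others. *MRPL14* had -0.29 on array 1 and between -0.089 and -0.058 on the others. *MRPS5* had -0.13 on array 2 and between 0.032 and 0.045 elsewhere. *MRPL12* had 0.11 on array 3 and between 0.23 and 0.25 elsewhere. On array 4, *MRPL45* had -0.075 (0.18 to 0.22 on the others), *MRPL44* had -0.12 (0.064 to 0.083) and *MTG1* had 0.55 (0.19 to 0.25). Among these genes *MTG1* passed the threshold, and without array 4 its adjusted *P* was 0.0611.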

How the results depend on the processing

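The count of 8 members fell to 1 in the t-test, to 1 with channels as separate samples and no replicate block, to 0 with a minimum of 1.3-fold, was 7 with no filter on dim probes, where 4 of the 8 passed, and lay between 0 and 4 with an array left out. In the same order, 2.80%, 9.37%, 14.1%, 8.46% and between 9.36% and 18.2% of all probes in the test passed. On the other lists 24 of 213 tested genes passed, where 22.7% of named genes did. The count of 24 was 64 with normexp and loess, 103 with no lowess and 94 with no lowess centred on tested probes. It was 2 in the t-test, 41 with an intensity trend and robust prior and 12 with separate channels and no replicate block. With a minimum of 1.3-fold it was 6, and with an array left out between 2 and 25. The small-subunit median was 0.17 with no lowess, 0.11 with no lowess centred on tested probes, and between 0.016 and 0.12 with an array left out. The large-subunit median was 0.081 with normexp and loess and 0.20 with no lowess, and that of all members 0.19 with no lowess. The cause was not tested.

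Signs reversed with no lowess for *RPS3A* (0.26), *MRPS18A* (0.061), *COX2* (0.56), *COX6A1* (0.48) and *COX6B1* (0.37), and with no lowess centred on tested probes at 0.21, 0.0064, 0.51, 0.43 and 0.32, and for *MRPS30* with an array left out, where its mean lay between -0.046 and 0.16. The ratios with no lowess were first centred on the tested probes. The centre was moved to the median of all probes of an array, as worded in the plan, after values had been seen, and the first form is kept as an alternative chosen after seeing the data, as is the naming of members through descriptions. Of 550 comparisons of a named gene with an alternative, 375 kept direction and side of the threshold, 160 lost the threshold, 4 gained it and 11 reversed.

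The mean over arrays of the difference of small and large subunit was negative under every alternative run, between -0.05 and -0.02, but the medians of the mean ratios were in the other order without array 1, at 0.12 and 0.11. Dim probes, 16219 of 43603, were not tested, and with 1 dye orientation on every array dye bias cannot be told apart from HMB.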
